A study of Mus musculus with 2 samples.

Results

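The transcripts examined here encode the thin filament, the Z-disc and the M-band of the sarcomere, together with proteins that anchor, build or degrade these structures. They were chosen as a list of 39 genes, and all probe sets of the array whose annotation names exactly 1 of these genes were taken, which gave 82 of 45101 probe sets for 38 of 18193 genes. Trim55 had no such probe set and was not analysed here. Whole hearts of male C57BL/6J mice, 10 weeks old, were collected on day 3 after surgery. In the infarct group the left anterior descending artery had been tied off for good, which gives a myocardial infarction (MI), and in the sham group the same operation was done without tying it. The RNA of 3 mice was combined into 1 pool per group, each pool was hybridised to 1 array, and infarcted muscle was not separated from remote muscle. There were therefore no replicates: no test between the pools was possible, and every difference given sets 1 infarct pool against 1 sham pool.

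In striated muscle, actin thin filaments carry tropomyosin and the troponin complex, which make contraction depend on calcium. Thin filaments of neighbouring sarcomeres are crosslinked by α-actinin at the Z-disc, whereas myosin thick filaments are held together at the M-band, and the giant protein titin spans from one to the other. The Z-disc is also a site of signalling and of protein turnover. Cardiac troponins T and I leak from dying cardiomyocytes and are used to diagnose infarction.

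A value is the log2 RMA signal of a probe set, and a difference is infarct minus sham, so that 1 stands for a 2-fold change. A gene was represented by its brightest probe set, and entered the comparison when this probe set was at or above the array median (6.36 for sham, 6.35 for infarct) on 1 array or both. By this rule 36 of the 38 genes were compared, whereas Neb and Myom3 were too dim. The only error that could be measured came from genes with several probe sets, whose log2 differences scattered with an SD of 0.23 over 5190 genes, which covers the probes and not the mice. Values of different probe sets are not comparable as amounts of mRNA, so only differences are set side by side.

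The sarcomere list as a whole differed little between the pools, and its genes went both ways. The 36 compared genes had a median difference of -0.09, and 22 of them (61.1%) lay below 0, against 49.8% of all 11961 compared genes, whose median was 0. Just 1 gene, the tropomyosin gene Tpm3, was higher by 2-fold or more (2.78%, against 3.73% of all genes). Another 1 was lower by 2-fold or more (2.78%, against 1.26% of all genes), namely Cmya5, which encodes the costameric protein myospryn. At 1.5-fold, 4 genes were higher (11.1%, against 10.3% of all genes) and 4 were lower (11.1%, against 6.32%). These shares were near the background, and with 36 genes each gene accounts for 2.78 percentage points. Most of the list, 28 genes, stayed within 1.5-fold, and 13 differed by less than the SD between probe sets. Sarcomere probe sets are among the brightest on the array. When all 500 genes at least as bright as the median member were taken, their median was -0.10.

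The labelled tissue was heart, and its markers were present in both pools. The 15 cardiomyocyte markers ranged from 7.86 to 14.90 (sham) and from 8.63 to 14.89 (infarct), and 13 of them lay below 0 (median -0.21; lowest Ckm at -0.77, highest Slc8a1 at 0.77). All 7 macrophage markers lay above 0 (median 1.12; from 0.23 for Csf1r to 1.95 for Msr1), as did 6 of 9 fibroblast and myofibroblast markers (median 0.34; from -0.34 for Dcn to 1.28 for Postn). Of 5 neutrophil markers, 3 were bright enough and lay between 1.11 (Csf3r) and 1.72 (S100a8). The values of the macrophage markers spanned 7.38 to 12.71 in the sham and 8.80 to 13.23 in the infarct pool, those of the fibroblast markers 7.93 to 13.97 and 9.02 to 14.31, and those of the neutrophil markers 5.14 to 8.09 and 5.33 to 9.76. In a whole heart, fewer cells of a type and less RNA per cell cannot be told apart. The zero of the scale also mattered. The mean difference of 9 housekeeping genes was 0.47, but they ranged from 0.01 (Tbp) to 1.12 (Gusb). That of 18 hybridisation control probe sets was -0.32, with a range from -0.54 to -0.003. Centring on either mean shifts every difference, with the median of all genes, by as much.

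**Figure D1:**
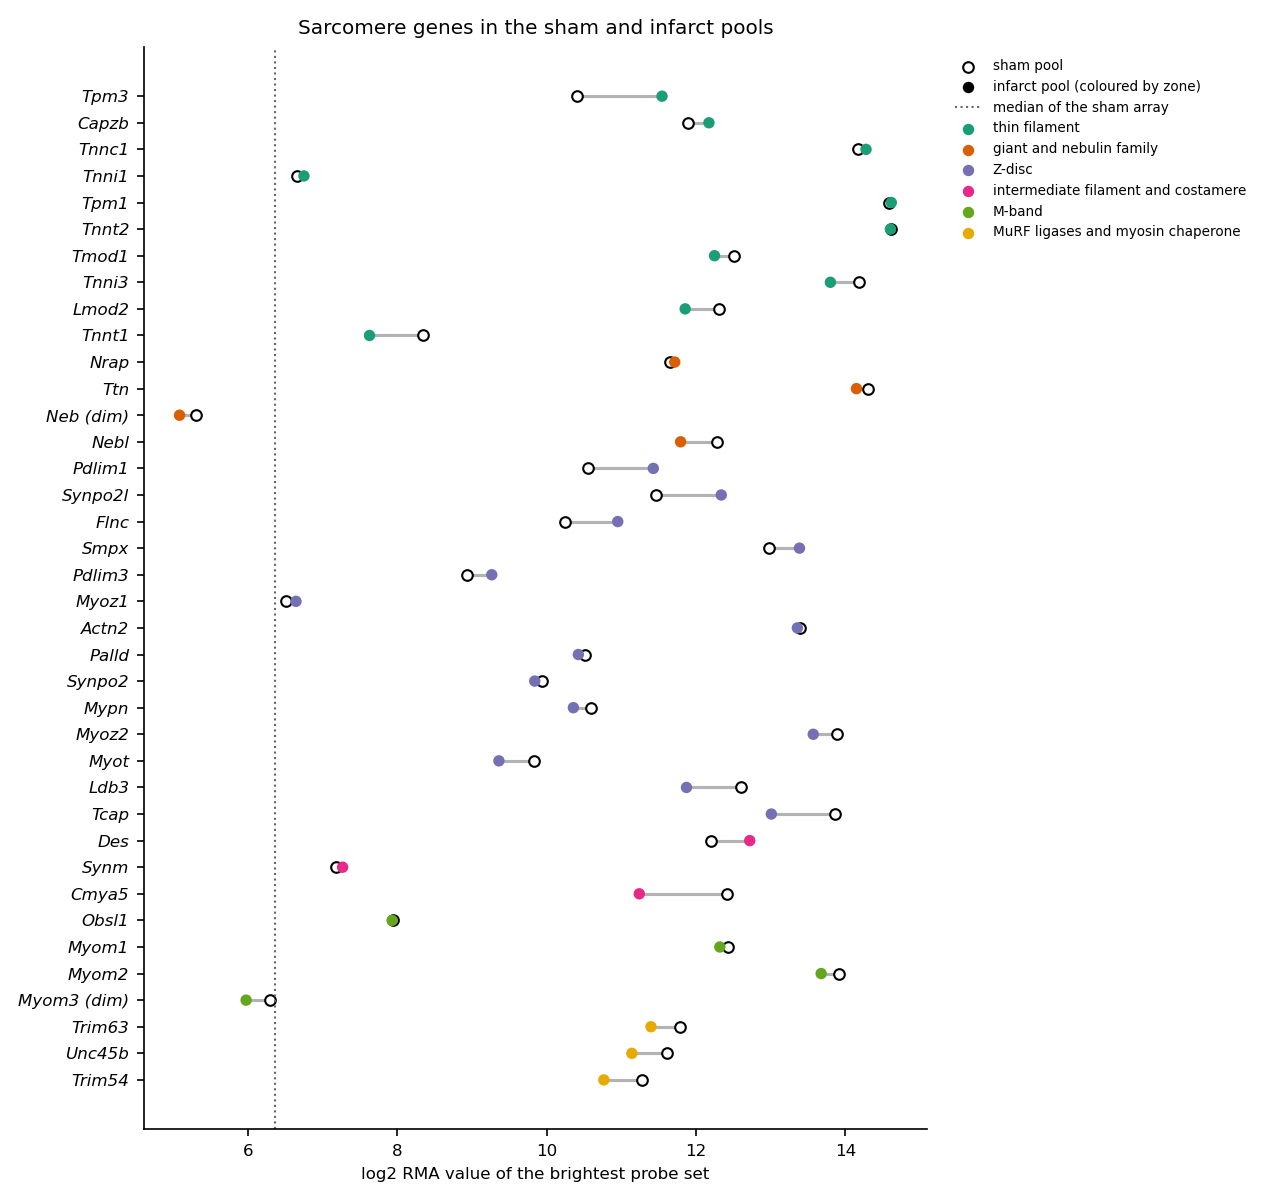
Log2 RMA value (x axis) of the brightest probe set of each of the 38 sarcomere genes (y axis, grouped by zone), with the sham pool as open circles and the infarct pool as filled circles coloured by zone. Tpm3 moved farthest to the right (10.40 to 11.55) and Cmya5 farthest to the left (12.42 to 11.24), while Tnnt2, Tpm1, Actn2 and Obsl1 overlapped.

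Of the 8 genes that differed by 1.5-fold or more, 7 had a promoter window in RefSeq (GRCm38.p6; Tcap had none). Of these 7 genes, 5 had a window with at least 1 of the sequence motifs known from muscle promoters. Among all 33 members with a promoter entry, 8 had no match, and the share of all genes with any of the motifs was not computed. Windows of the 5 genes are shown here as the regulatory sequence beside the members that set the range of the list. Each line gives the 250 bases before an annotated start, 5′ to 3′ on the strand of the gene. Where a gene had 2 windows, the one with more matches, or else with the match nearer to the start, is printed. Capitals mark a match, on either strand, to 1 of 5 motifs. CATTCC is the MCAT element that TEAD factors bind. The E-box of myogenic factors was searched as CAGCTG. For factors of the GATA family the search used AGATAA. The MEF2 box and the CArG box of serum response factor were the others.
Tpm3, chr3:90072401-90072650, plus strand: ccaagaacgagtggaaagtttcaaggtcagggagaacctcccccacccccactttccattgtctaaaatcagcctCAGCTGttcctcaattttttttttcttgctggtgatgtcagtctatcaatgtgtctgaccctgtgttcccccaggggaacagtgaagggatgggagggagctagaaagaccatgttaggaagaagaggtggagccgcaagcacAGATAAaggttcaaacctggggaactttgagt
Flnc, chr6:29433006-29433255, plus strand: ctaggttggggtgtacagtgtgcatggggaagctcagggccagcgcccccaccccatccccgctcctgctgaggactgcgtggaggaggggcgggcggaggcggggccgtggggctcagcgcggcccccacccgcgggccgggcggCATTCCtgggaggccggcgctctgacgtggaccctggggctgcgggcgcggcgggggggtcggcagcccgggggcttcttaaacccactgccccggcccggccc
Synpo2l, chr14:20664575-20664824, minus strand: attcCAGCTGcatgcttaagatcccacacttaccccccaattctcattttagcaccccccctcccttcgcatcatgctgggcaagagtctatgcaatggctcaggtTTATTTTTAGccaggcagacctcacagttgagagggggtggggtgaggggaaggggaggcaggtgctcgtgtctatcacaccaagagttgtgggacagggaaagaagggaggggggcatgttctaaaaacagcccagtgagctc
Ldb3, chr14:34588682-34588931, minus strand: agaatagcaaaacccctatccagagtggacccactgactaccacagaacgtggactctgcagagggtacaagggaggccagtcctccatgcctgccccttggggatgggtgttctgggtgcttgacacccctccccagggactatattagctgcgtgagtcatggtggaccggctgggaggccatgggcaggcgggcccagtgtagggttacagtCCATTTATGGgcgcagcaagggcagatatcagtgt
Cmya5, chr13:93144725-93144974, minus strand: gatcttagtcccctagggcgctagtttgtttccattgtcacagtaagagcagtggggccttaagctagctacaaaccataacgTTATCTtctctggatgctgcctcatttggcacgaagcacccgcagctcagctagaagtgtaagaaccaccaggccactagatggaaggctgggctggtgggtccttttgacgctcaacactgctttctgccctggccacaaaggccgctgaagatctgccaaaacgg

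Tpm3, the highest member, has an E-box beginning 175 bases and a GATA match beginning 32 bases before its start. Flnc has an MCAT match at 104 bases, Synpo2l an E-box at 246 and a MEF2 box at 144 bases, and Ldb3 a CArG box at 35 bases. Cmya5, the lowest member, has a GATA match at 167 bases, on the reverse strand. Higher and lower genes were thus found with the same motif, since both Tpm3 and Cmya5 hold a GATA match. Pdlim1 and Tnnt1 had no match. Over all 44 windows of the 33 genes with a promoter entry, MCAT was found in 25.0% (12.6% of 32851 windows of all genes), the E-box in 31.8% (4271 of the 32851), the MEF2 box in 13.6% (2.92%), the CArG box in 9.09% (1.47%) and the GATA site in 15.9% (9.99%). Within a window no match overlapped another. Windows of 1 gene can overlap, however, and the 47 matches fall on 45 sites, since a CArG box of Ldb3 and an E-box of Tnni1 each lie in 2 windows. A match is a string of letters and no evidence of binding.

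In the thin filament, 2 of the 3 genes of the cardiac troponin complex were level at their brightest probe set, and the tropomyosin gene Tpm3 was the highest. The 10 genes had a median difference of 0.01, with 5 above and 5 below 0. The genes of cardiac troponin T, Tnnt2, and of troponin C, Tnnc1, which binds calcium, had values of 14.62 and 14.17 in the sham and of 14.61 and 14.28 in the infarct pool, so that their differences of -0.01 and 0.11 lay within the SD between probe sets. The other bright probe sets of Tnnt2 gave -0.04 and -0.60. Tnni3, which encodes cardiac troponin I, the inhibitory subunit, was lower, at 14.18 (sham) and 13.80 (infarct; difference -0.38).

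Troponin isoforms of other muscles did not follow a single direction. Tnnt1, the troponin T gene of slow skeletal muscle, was the lowest of the zone, with 8.34 (sham) and 7.63 (infarct). Its difference of -0.72, or 1.64-fold lower, rests on 1 probe set. Tnni1, the troponin I gene of slow skeletal muscle and of the fetal heart, was close to the array median at 6.65 and 6.75 (difference 0.10). Of the troponin genes of fast skeletal muscle, which are not on the list, Tnni2 was at 6.61 and 7.77 by its brightest probe set (difference 1.16) and its other gave 0.44. Tnnt3 was below the array median in the sham pool (5.03) and entered the comparison only through the infarct pool (6.63), so its difference of 1.59 is given as a description. Tnnc2 was too dim to be compared. The 11 markers of fast skeletal muscle, these 3 genes included, lay between 4.01 and 7.71 (sham) and between 3.72 and 8.00 (infarct), and the defining myosin genes Myh1 and Myh4 were too dim to be compared in both pools, with Myh2 at -0.38. In the genome the troponin genes lie in pairs, Tnni3 next to Tnnt1 and, with 1 protein-coding gene in between, Tnni1 near Tnnt2 and Tnni2 near Tnnt3. Tnni3 and Tnnt1 were both lower in the infarct pool, while Tnni1 and Tnnt2 differed, at their brightest probe set, by less than the SD between probe sets.

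Tropomyosins, which wind along actin and gate the access of myosin, were split on the list between Tpm3 and Tpm1. Tpm3 had 10.40 (sham) and 11.55 (infarct), a difference of 1.15 (2.21-fold). All 5 of its probe sets, each bright enough, were higher in the infarct pool, by 0.35, 0.67, 0.79, 1.05 and 1.15, and their mean was 0.80. The main cardiac tropomyosin gene, Tpm1, was level at its brightest probe set, with 14.59 and 14.62 (difference 0.03). Its other probe sets disagreed: 1 was higher in the infarct pool (8.80 and 9.75, difference 0.95), whereas 2 further ones gave -0.11 and -0.35. Tpm1 encodes several muscle and non-muscle isoforms through alternative exons, and which of them each probe set reads was not tested. The paralogs Tpm2 (0.82) and Tpm4 (1.21), which are not on the list, were higher in the infarct pool, like Tpm3.

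The genes for the ends of the thin filament went apart. At the pointed end, Tmod1, whose product tropomodulin caps the filament, differed by -0.27, and Lmod2, whose product leiomodin elongates it, by -0.46 (12.31 and 11.86). Of other genes of these families, not on the list, Lmod3 (-1.05) and Tmod4 (-1.60) were lower by more and Lmod1 (-0.14) by less. The widely expressed Tmod3 was at 0.47, and Tmod2 was too dim to be compared. At the barbed end, Capzb, the β subunit of the capping protein that sits in the Z-disc and also caps actin in other cells, was slightly higher (11.90 and 12.17), with 0.22, 0.28 and 0.33 at its 3 bright probe sets.

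Of titin and the nebulin family, 2 genes were lower and 1 was level. Ttn had 14.31 (sham) and 14.15 (infarct) at its brightest probe set (difference -0.16), but the other 4 bright ones gave -0.21, -0.64, -0.66 and -0.85. All 5 were thus lower in the infarct pool, by an amount that depended on the probe set. Nebl, which encodes nebulette, the short nebulin of the cardiac Z-disc, was lower at each of its 3 probe sets, from 12.28 to 11.79 at the brightest (difference -0.49) and by -0.40 and -0.78 at the others. Nrap, a nebulin-related gene of myofibril assembly and of the intercalated disc, had 11.65 and 11.72 (difference 0.07). Neb, the nebulin gene of skeletal muscle, was dim in both pools at 5.30 and 5.08.

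The 14 genes of the Z-disc went both ways around a median of -0.06, with 3 of them higher by 1.5-fold or more (10.3% of all genes were) and 2 lower by as much (6.32% of all genes). Pdlim1, which encodes a PDZ and LIM domain protein that binds α-actinin, was the highest (10.56 for sham, 11.43 for infarct, difference 0.87, 1.83-fold). This rests on 1 probe set, since its 2 others were dim (0.25 and 0.09). Synpo2l, a heart-enriched synaptopodin-like gene whose product binds actin and α-actinin, was also 1.83-fold higher, with 11.47 and 12.34 (difference 0.87). Its other bright probe sets gave 0.72 (10.94 and 11.66) and 1.08 (8.24 and 9.32), so that all 3 were higher, while a dim one stood at 0.02. Flnc, which encodes filamin C, an actin crosslinker of muscle, was higher at both probe sets, by 0.70 (10.25 and 10.95) and 0.88 (9.61 and 10.49).

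The lower Z-disc genes were those of the titin cap and of a PDZ-LIM scaffold. Tcap, which encodes telethonin, the protein that joins the ends of 2 titin molecules, was the lowest, with 13.86 (sham) and 13.01 (infarct; difference -0.85, 1.80-fold lower, 1 probe set). Ldb3, which encodes ZASP (also called Cypher), was 1.66-fold lower at its brightest probe set, with 12.60 and 11.87 (difference -0.73). The other probe sets of Ldb3 gave only -0.11 (12.19 and 12.08) and -0.23 (9.67 and 9.44), and the mean over all 3 was -0.35, under 1.5-fold. The gene is spliced into several isoforms, and which of them each probe set reads was not tested.

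The remaining Z-disc genes stayed within 1.5-fold. Actn2, the sarcomeric α-actinin gene and the core of the Z-disc, had 13.39 and 13.36 (difference -0.03). Of the genes that bind it, Myoz2, the cardiac calsarcin, differed by -0.32, Myot (myotilin) by -0.47, Mypn (myopalladin) by -0.24, Palld (palladin) by -0.08 and Pdlim3 by 0.34, whereas Myoz1, the calsarcin of fast muscle, was near the array median (0.14). Smpx, a small muscle protein gene, was higher (12.97 and 13.39, difference 0.41). Synpo2, which encodes myopodin, was at -0.09 by its brightest probe set (9.93 and 9.84), but another was at 8.06 (sham) and 6.59 (infarct). Its difference of -1.47 was the largest of the 82 probe sets, and 1 more bright one gave -0.21. Synpo2 thus passed 1.5-fold, in the lower direction, only when the probe sets were averaged (-0.59).

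Next to the Z-disc, the intermediate filament gene and the costamere gene were at opposite ends. Des, which encodes desmin, the muscle intermediate filament that ties Z-discs to each other and to the membrane, was higher at both probe sets, by 0.51 (12.21 and 12.72) and 0.93 (5.44 and 6.37). The dimmer of them reached the array median only in the infarct pool, and the difference of 0.51 stayed within 1.5-fold. Synm, whose product synemin copolymerises with desmin, had 7.18 and 7.27 (0.09) and 0.01 at its other probe set. Cmya5 had 12.42 (sham) and 11.24 (infarct), a difference of -1.17 (2.26-fold lower), on 1 probe set.

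**Figure D2:**
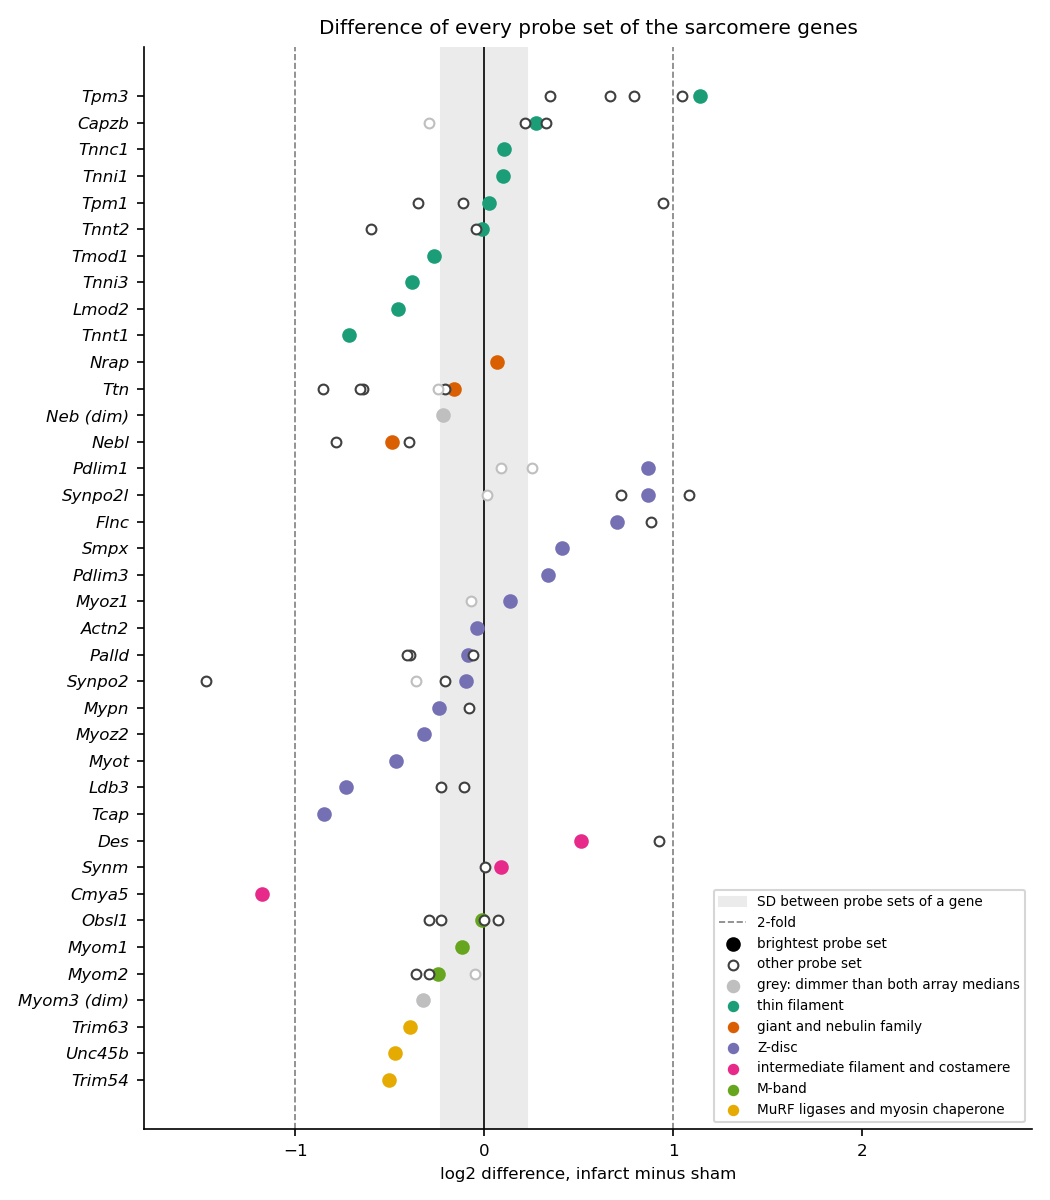
Log2 difference, infarct minus sham (x axis), of each probe set of the 38 sarcomere genes (y axis). Filled circles, coloured by zone, are the brightest probe set of a gene, open circles the others, grey ones are dimmer than both array medians, the grey band is the SD of 0.23 between probe sets, and dashed lines mark 2-fold. Among the brightest probe sets those of Tpm3 and Cmya5 lie outside the dashed lines, and Tpm1, Tpm3, Ttn, Synpo2, Ldb3 and Tnnt2 spread over more than 0.46.

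The 3 compared M-band genes stayed within 1.5-fold, all at or slightly below 0. Myom1 and Myom2, which encode myomesin and M-protein, the crosslinkers of the thick filaments, differed by -0.12 (12.44 and 12.32) and -0.24 (13.92 and 13.68). The other 2 bright probe sets of Myom2 gave -0.29 and -0.36, so that all 3 were slightly lower. Obsl1, a widely expressed relative of obscurin, had 7.94 and 7.93 at its brightest probe set (-0.01) and between -0.29 and 0.07 at its 5 bright ones. Myom3 was dim, with 6.30 and 5.98.

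The 3 compared genes of the list for turnover and folding of sarcomere proteins were lower by similar amounts. Trim54 and Trim63 encode the ubiquitin ligases MuRF3 and MuRF1, which bind titin near the M-band or microtubules, and Unc45b encodes the chaperone that folds the myosin head. Trim54 had 11.27 and 10.77 (difference -0.50), Unc45b 11.61 and 11.14 (-0.47) and Trim63 11.79 and 11.40 (-0.39). As deposited, all 3 lay outside the SD between probe sets and within 1.5-fold, each on 1 probe set. Centred on the hybridisation controls they were at -0.19 (Trim54), -0.15 (Unc45b) and -0.07 (Trim63), inside that SD. Among genes off the list, Fbxo32, the ubiquitin ligase atrogin-1, was at -0.84, and the muscle methyltransferase gene Smyd1 at -0.38, whereas the general paralog Unc45a was at -0.02. Further genes off the list went both ways, with Hspb7 at 0.46, Cryab at 0.18, Bag3 at -0.19 and Klhl41 at -0.09.

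Across zones, most of the members expressed also outside striated muscle were above 0 and most of the rest below it. The list was divided into 11 genes known to be active in smooth muscle, fibroblasts or most cells (Tpm1, Tpm3, Palld, Pdlim1, Pdlim3, Synpo2, Flnc, Des, Synm, Capzb and Obsl1) and 28 others. This division was drawn up with earlier results of these data known, so the contrast between the groups is a description only. By the brightest probe set, the 11 had a median of 0.28, with 8 above 0 and 3 between -0.09 and -0.01. Averaged over bright probe sets, these 3 were at -0.59 (Synpo2), -0.23 (Palld) and -0.09 (Obsl1), and the median of the 11 was 0.27. Differences smaller than the SD between probe sets were found in 5 of the 11 and in 8 of the 25 compared others. The 25 compared others had a median of -0.27, with 19 below 0, where 49.8% of all genes lay. Their 6 exceptions were Synpo2l (0.87), Smpx (0.41), Myoz1 (0.14), Tnnc1 (0.11), Tnni1 (0.10) and Nrap (0.07). Markers of macrophages and fibroblasts were also mostly above 0 (medians 1.12 and 0.34), and smooth muscle markers both ways (median 0.01 over 9 genes, from -0.77 for Myh11 to 0.80 for Tagln). Cardiomyocyte markers had a median of -0.21, near that of the 25 others. The part of these cell types in the difference was not tested.

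Paralogs of the list that serve the cytoskeleton of other cells were mostly higher in the infarct pool. Of 16 such genes, 13 lay above 0, 10 were at least 1.5-fold higher (10.3% of all genes were) and the median was 0.81. In the α-actinin family the sarcomeric gene Actn2 was at -0.03, while Actn1, the gene of a non-muscle α-actinin, was at 1.61, the highest of these paralogs, and Actn4 at 0.87. In other families this was not so. Flnc (0.70) and Flna (1.01) were both higher, and Pdlim1 (0.87) and Pdlim3 (0.34) stood beside Pdlim2 (0.52) and Pdlim4 (-0.13). The capping protein genes Capzb, Capza1 and Capza2 were at 0.28, 0.96 and 0.00. Synpo, the gene of synaptopodin, was the lowest of the 16 at -0.71 by its brightest probe set, but its other bright one gave 1.63, so that its direction is not settled. Its relatives on the list, Synpo2l and Synpo2, were at 0.87 and -0.09.

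Further genes of the sarcomere and costamere that are not on the list went both ways as well. Of 33 compared genes of 40, 18 lay above and 15 below 0, with a median of 0.06, and 7 were at least 1.5-fold higher and 3 lower (10.3% and 6.32% of all genes). The higher ones were Tnni2, Tnnt3 (which reached the array median only in the infarct pool), Pdlim7 (1.09, with a low of 0.25 among its 3 bright probe sets), Fhl1 (0.96), Tpm2, Ankrd1 (0.62), a nuclear and Z-disc ankyrin repeat protein, and Acta1 (0.61), the skeletal α-actin, whereas Actc1, the cardiac α-actin, was at 0.06. The lower ones were Tmod4, Lmod3 and Fbxo32. Thick filament genes had a median of -0.13 over 9 genes, from -1.20 for Myh7b to 0.95 for Myh7, the slow myosin heavy chain gene. Atrial markers had a median of -0.22 over 5 genes, from -0.33 (Sln) to 0.27 (Nppa), and endothelial markers one of 0.16 over 6 genes, from -0.15 (Tek) to 0.56 (Pecam1).

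**Figure D3:**
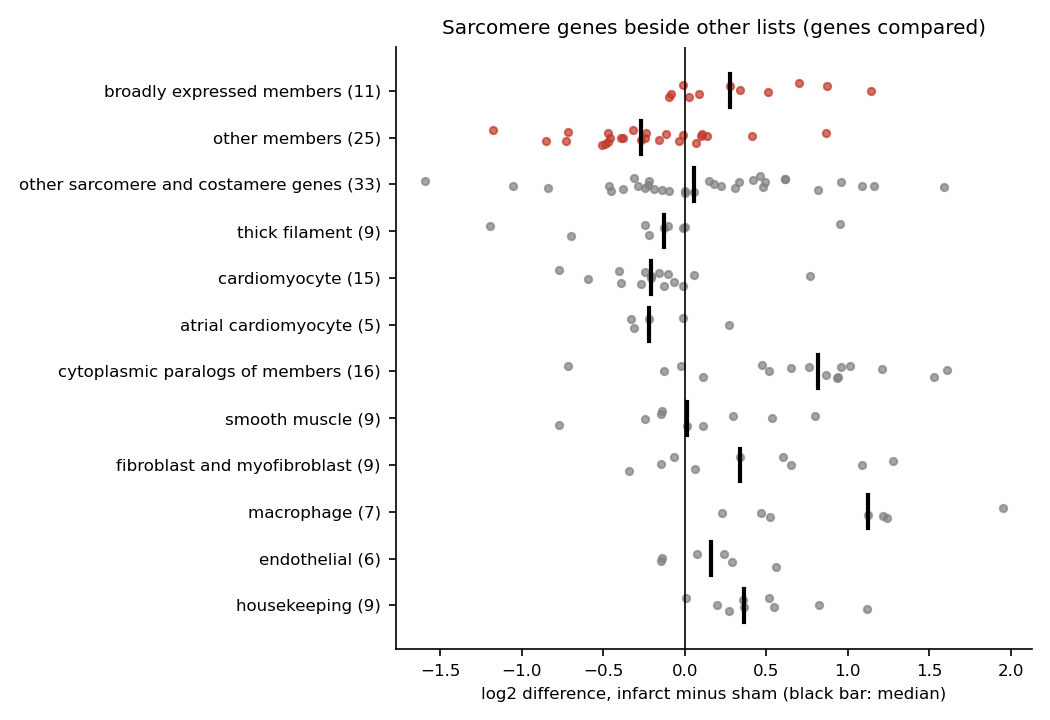
Log2 difference, infarct minus sham (x axis), of each compared gene in the 11 broadly expressed and the 25 other sarcomere genes (red) and in 10 comparison lists (grey), with the median of each as a black bar and the number of genes in brackets. The medians of the sarcomere groups lie on either side of 0 (0.28 and -0.27), and those of macrophage markers (1.12) and cytoplasmic paralogs (0.81) lie highest.

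For some sarcomere genes the value depended on the probe set. Of the 16 genes with at least 2 bright probe sets, 6 (37.5%) spanned more than 0.46, against 19.2% of 5190 genes: Synpo2 (span 1.38), Tpm1 (1.30), Tpm3 (0.80), Ttn (0.70), Ldb3 (0.62) and Tnnt2 (0.59). In Tnnt2, the 2 probe sets above 14 gave -0.01 and -0.04, while a dimmer one went from 10.86 to 10.26 (-0.60). The brightest probe set showed a smaller difference than the mean of the others in 11 of the 16 genes (68.8%). This share was 50.1% over all genes. Where the brightest probe set reached a mean of 12, it was 6 of 8 members (75%) and 64.1% of 281 genes. Of the 82 probe sets 12 had a mean of 13 or more (14.6%, against 0.81% of the whole array), and these 12 ranged from -0.85 (Tcap) to 0.41 (Smpx). Whether signals near the top of the scale are compressed was not tested. Over all 72 bright probe sets of the list, 44 lay below 0 and 27 above it, with 1 at 0.

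The side of 0 on which the zones lay depended on the scaling. Their order did so only between the M-band and the titin and nebulin family, which changed places under quantile normalization (-0.16 and -0.14). Centred on the hybridisation controls, the median of the 36 genes was 0.23 with 12 genes below 0 (18.1% of all genes lay there), and centred on the housekeeping genes it was -0.55 with 31 below 0 (86.1% of all genes). Under the former, Cmya5 alone of the lower genes remained at least 1.5-fold lower, and under the latter, Tpm3 alone of the higher genes remained at least 1.5-fold higher. Relative to the cardiomyocyte markers, that is with their median of -0.21 set to 0, the median of the list was 0.12, 6 genes were at least 1.5-fold higher (17.9% of all genes were) and Tcap and Cmya5 were at least 1.5-fold lower (2.78% of all genes).

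**Figure D4:**
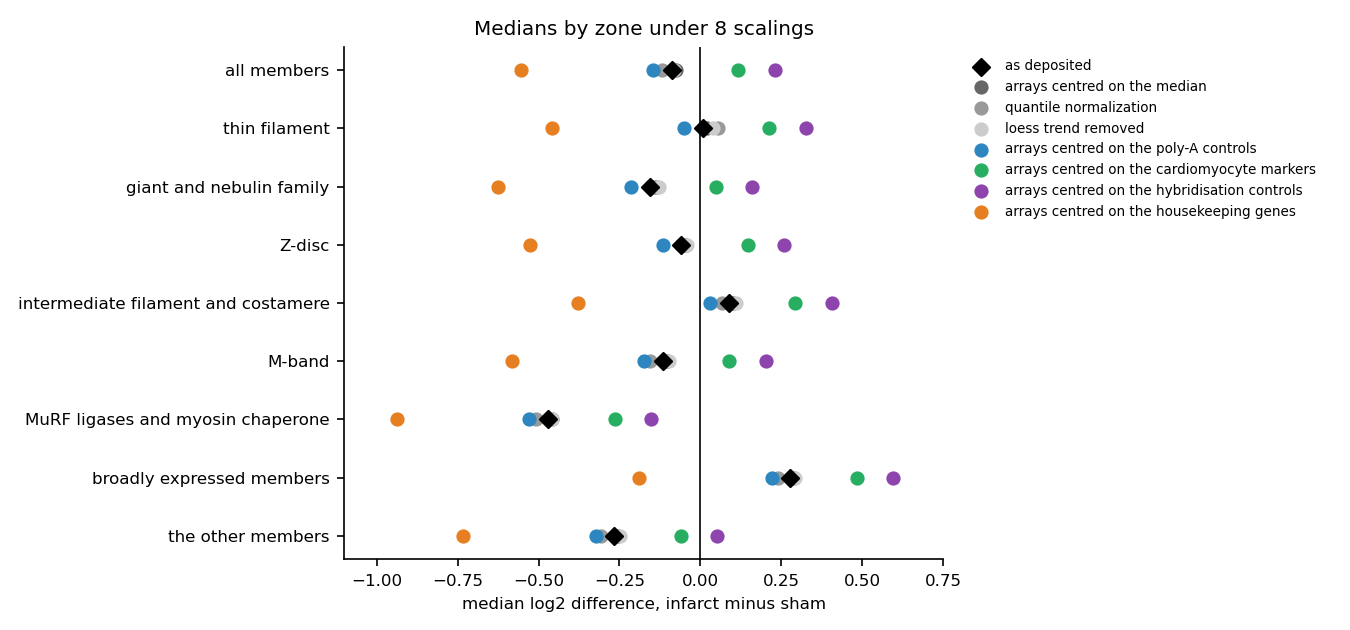
Median log2 difference, infarct minus sham (x axis), of the sarcomere list, its 6 zones and its broadly expressed and other genes (y axis), as deposited (black diamonds) and under 7 other scalings (circles). The medians shift together, from -0.55 (housekeeping genes) to 0.23 (hybridisation controls) for the whole list, and the genes of turnover and folding stay below 0 under all 8. With the hybridisation controls the median of the turnover and folding genes is -0.15, within the SD of 0.23 between probe sets.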

How the data were processed

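Total RNA of whole hearts was extracted by the authors with ISOGEN and an RNeasy kit, pooled from 3 mice per group and hybridised as biotinylated cRNA to GeneChip Mouse Genome 430 2.0 arrays. The deposited log2 values were made by the authors with RMA, that is background-corrected, normalized between the arrays and summarised per probe set. Its version and a genome build: not given in the sources used here. Values ranged from 2.95 to 14.90. Because RMA equalises the arrays, a change in total mRNA per heart cannot be seen. Probe sets were named by the annotation of the array (34945 with 1 symbol, of which 34741 matched RefSeq by Entrez identifier). Those with several symbols (932) were left out, and none of them named a member.

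The members, zones, lists and thresholds were chosen with earlier results of these data known. Each member was named with its difference, with the values of both pools for those at 1.5-fold or more and for the extremes of each zone, and of each comparison list the highest and lowest gene. Genes of a list named beyond these, for family or role, were chosen after their values were seen. With 1 array per group no test, interval or left-out sample was possible, so precision is limited by the number of arrays (2). Alternatives changed the scaling (5 centrings, quantile normalization, a loess trend with span 0.4), the probe sets of a gene, and the filter on dim probe sets. The procedure was tested on simulated data. There all probe sets of a gene were shifted alike, so the disagreement between probe sets was not covered. Python 3.11.15, numpy 2.4.6, pandas 2.3.3, statsmodels 0.14.6 and matplotlib 3.10.9 were used.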

Additional observations from a re-analysis of the deposited data

How the results depend on the processing

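No paired analysis was possible because each group has 1 array, and for the same reason no sample could be left out. Zero-setting mattered most. Centring on the housekeeping genes gave medians of -0.55 (whole list), -0.46 (thin filament), -0.62 (titin and nebulin family), -0.53 (Z-disc), -0.38 (intermediate filament and costamere), -0.58 (M-band), -0.94 (turnover and folding), -0.19 (broadly expressed) and -0.73 (others). It left 0 genes at least 2-fold and 1 gene at least 1.5-fold higher, with 4 and 16 lower (at 1.5-fold, 3.33% of all genes were then higher and 36.5% lower). Centring on the hybridisation controls gave, in the same order, 0.23, 0.33, 0.16, 0.26, 0.41, 0.20, -0.15, 0.59 and 0.051, with 4 and 8 genes higher and 0 and 1 lower (at 1.5-fold, 24.7% and 1.88% of all genes). With the cardiomyocyte markers at 0, 3 genes were at least 2-fold higher and 0 lower, and 2 were at least 1.5-fold lower. Averaging probe sets left 0 genes at least 2-fold higher (Tpm3 at 0.80) and moved the titin and nebulin median to -0.50. The median of the whole list was then -0.19. At 1.5-fold, Des (0.72) joined the higher genes, and Synpo2 (-0.59) took the place of Ldb3 (-0.35) among the lower ones. Without probe sets ending in _x_at or _s_at, 2 genes were at least 2-fold higher (Tpm3 and Synpo2l), and with the 75th percentile as the filter the intermediate filament and costamere median was -0.33, since Synm dropped out. Centring on the array medians or the poly-A controls, quantile normalization, loess and no filter moved no median by more than the SD between probe sets (0.23) and no count by more than 1.5 times. None of the 8 genes at 1.5-fold or more changed sign under any of the 11 alternatives. What depth limits here is the number of arrays and, for Tnni1, Myoz1, Neb and Myom3, values near or below the array median.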
